A study of Mus musculus with 8 samples.

Results

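Cluster 5 was 1 of 12 clusters that the authors assigned to mouse CD4+ T cells from spleen after polarization in culture. Its cells were taken by the deposited cluster label, with at least 500 detected genes, which left 2362 of the 2402 cells given that label. They made up 2.32% of the 101688 cells kept by the same limit in the whole series of 104660 cells. Single cells had been captured by droplets with a 3′ kit, so each unique molecular identifier (UMI) counts 1 captured transcript. All cells came from female mice aged 10 weeks whose strain field reads GPR65, and were harvested on day 3. The genotypes were Gpr65 knockout (Gpr65_KO, here KO) and Gpr65_WT (here WT). The labels do not name the allele, and which part of the gene was deleted is likewise not given. Under Th17 polarization both genotypes received IL-1b at 20 ng/ml, IL-6 at 25 ng/ml and IL-23 at 20 ng/ml. Under Th22 polarization IL-6 was raised to 40 ng/ml, the other cytokines kept their doses, and FICZ, an agonist of the aryl hydrocarbon receptor, was added at 400 nM. Each of the 4 combinations had 2 libraries, numbered 1 and 2. The labels do not say whether these are separate mice or cultures, so p-values measure only the spread between libraries, which may be technical.

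Gpr65 encodes a receptor on the cell surface that senses protons and signals through cyclic AMP. The cluster was led by the metallothionein genes Mt1 and Mt2 and by Gstt1. Metallothioneins are small proteins rich in cysteine that bind zinc and copper, and their genes are switched on by metals through the factor MTF-1 and by glucocorticoids. Gstt1 encodes a theta-class glutathione transferase, an enzyme that joins glutathione to reactive compounds.

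In mm10 with the GENCODE vM21 annotation, Mt2 (ENSMUSG00000031762) lies at chr8:94172664-94173568 and Mt1 (ENSMUSG00000031765) at chr8:94179082-94180327, both on the plus strand, with 5513 bases between them. Gstt1 (ENSMUSG00000001663) lies at chr10:75783813-75798584 on the minus strand. The stretches upstream of the starts of Mt1 and Mt2 are shown because these genes are the ones most of the cluster's cells share. They come from RefSeq on GRCm38.p6, run 5′ to 3′ on the plus strand, and have capitals at each match to the core of the metal response element. The Mt1 stretch is chr8:94178839-94179081 (243 bases) and the Mt2 stretch chr8:94172368-94172617 (250 bases), which ends at the RefSeq start and overlaps an exon of the gene model Gm45774 on the other strand.
Mt1: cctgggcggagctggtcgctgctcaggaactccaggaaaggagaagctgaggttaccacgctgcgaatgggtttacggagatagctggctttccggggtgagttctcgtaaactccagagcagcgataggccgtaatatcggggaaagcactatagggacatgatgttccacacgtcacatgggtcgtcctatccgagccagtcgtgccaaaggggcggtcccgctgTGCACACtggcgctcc
Mt2: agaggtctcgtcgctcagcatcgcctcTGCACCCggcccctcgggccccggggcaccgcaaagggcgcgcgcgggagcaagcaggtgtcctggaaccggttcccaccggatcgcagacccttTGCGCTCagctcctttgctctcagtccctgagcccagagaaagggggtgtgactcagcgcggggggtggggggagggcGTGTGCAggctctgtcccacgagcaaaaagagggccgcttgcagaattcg
The search was for TGCACNC or TGCGCNC, which cannot match at the same position, on both strands. The Mt1 stretch held 1 match, on the plus strand. The Mt2 stretch held 3, of which 2 were on the plus and 1 on the minus strand. Both stretches stop at an annotated start and bases past it were not searched, so the counts hold for these windows only. Over 32851 upstream windows of 250 bases, 21.4% held at least 1 match and 5.18% held 2 or more. A match describes letters, not a binding site.

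Cluster 5 held between 162 and 714 cells per library, and between 583101 and 1761569 UMIs. Its cells were as deep as the others, with a median per library of 2167 to 4368.5 UMIs against 2362 to 4140 in the 99326 cells of the other clusters. Barcodes that occur in more than 1 library belonged to 57 of its cells (2.41%), against 2.43% of all cells kept. The library KO Th17 replicate 2 stood apart: 5.07% of its cells were in the cluster (95% exact binomial interval 4.72 to 5.45%, counting error only), against 1.51 to 2.34% in the other 7 libraries. Results that rest on this library are given with and without it.

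The question of what sets the cluster apart was answered by description only, because the clustering used these same genes. Counts were summed per library over the cluster's cells and over all other cells of that library, and scaled to the library's total and given in the usual unit CPM. Mt2 stood at 423 and 644 CPM in KO Th17 replicates 1 and 2, 299 and 334 in KO Th22, 338 and 284 in WT Th17, and 294 and 292 in WT Th22. In the other cells of these libraries it stood between 14.9 and 44.4 CPM. The lowest library of the cluster was thus far above the highest of the other cells, and KO Th17 replicate 2 was highest in both. Mt1 stood at 1031 and 1681 CPM in KO Th17, 1024 and 876 in KO Th22, 655 and 741 in WT Th17, and 571 and 533 in WT Th22, against 103 to 276 CPM in the other cells. All KO libraries were above all WT libraries inside the cluster. Gstt1 stood at 129 and 58.5 CPM in KO Th17, 79.1 and 96.6 in KO Th22, 134 and 93.6 in WT Th17, and 127 and 122 in WT Th22, against 4.44 to 7.32 CPM elsewhere. For Gstt1, KO Th17 replicate 2 was the lowest library, not the highest.

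The log2 ratio of CPM to the other cells of the same library, with 1 CPM added to both, had a median over the 8 libraries of 3.96 for Gstt1 (range 2.84 to 4.19), 3.85 for Mt2 (3.49 to 4.35) and 2.47 for Mt1 (2.08 to 3.30). These were the only 3 genes above a log2 ratio of 1 among the 4303 with at least 20 CPM in the cluster and a higher level there in every library. Of those 4303 genes, 94 were higher in all 8 libraries, and 9 had a median above 0.5. Over all 11165 genes with at least 1 CPM, 1.08% were higher and 2.89% lower in all 8 libraries, and the median ratio was -0.03. With the other clusters weighted equally the count above a log2 ratio of 1 was 5 instead of 3.

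**Figure D1:**
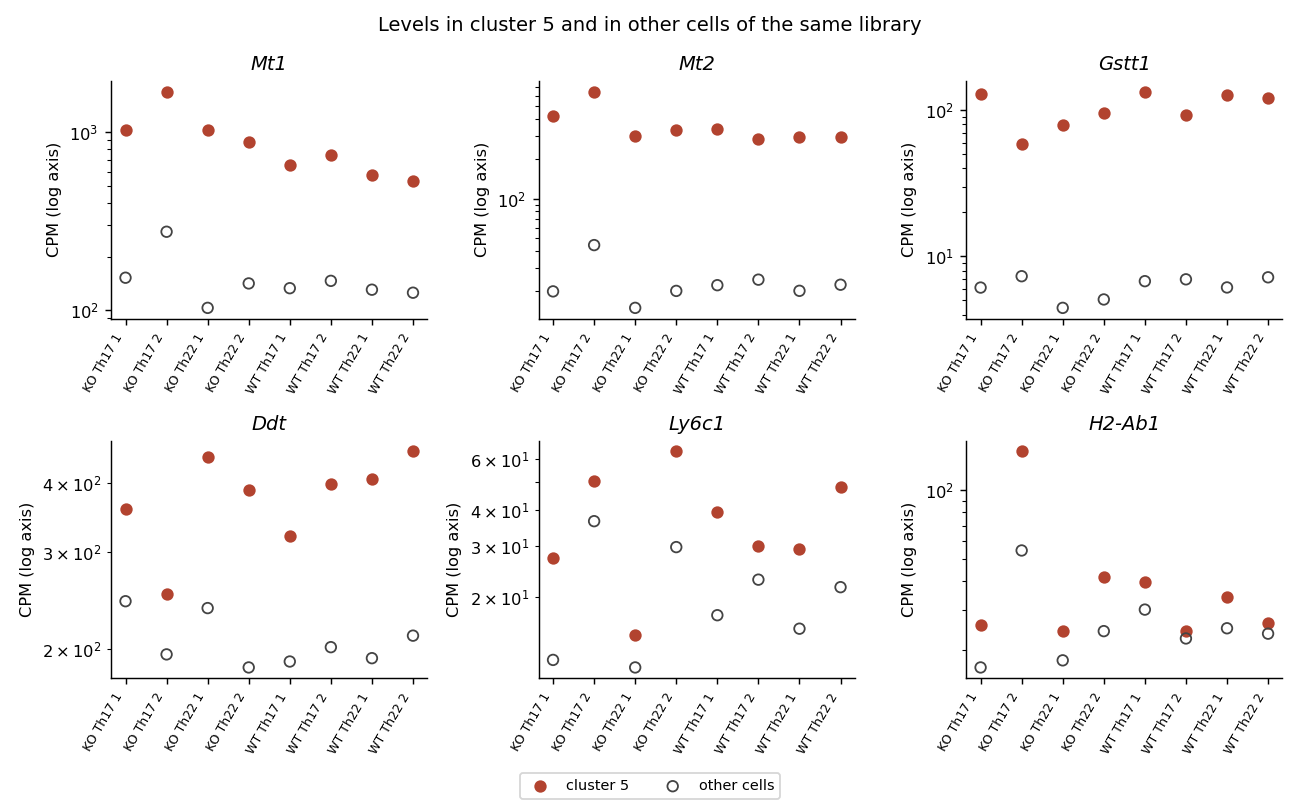
Levels of 6 genes in cluster 5 (filled) and in the other cells of the same library (open), in CPM on a log axis, for each of the 8 libraries. Mt1, Mt2 and Gstt1 are separated in every library, whereas H2-Ab1 reaches 148 CPM in KO Th17 replicate 2 and lies between 24.1 and 41.6 CPM in the other 7.

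The genes that had named the cluster, Mt1, Selenbp1, Ly6c1 and H2-Ab1, held unequally. Ly6c1, which encodes a surface protein of memory T cells and other leukocytes, had a mean of 37.9 CPM against 20.9, with a median log2 ratio of 0.98. After each cell was thinned to 1500 UMIs that ratio was 0.39. H2-Ab1, a chain of the MHC class II molecule that presents peptides on antigen-presenting cells, reached 148 CPM in KO Th17 replicate 2, whereas the other 7 libraries lay at 24.1 to 41.6 CPM, with a median log2 ratio of 0.42 (0.40 without that library). The other cells of KO Th17 replicate 2 were also highest for H2-Ab1, at 54.4 CPM against 16.8 to 30.02. Selenbp1, a selenium-binding protein, had 29.5 CPM in KO Th17 replicate 2 and at most 5.20 CPM in any other library, and its median log2 ratio was -0.21. It had 0 UMIs in 3 libraries. A count of 0 still allows a share of up to 1.42% of cells with a UMI in WT Th22 replicate 2, 1.20% for replicate 1 of KO Th17 and 1.85% for that of KO Th22. The data therefore go against Selenbp1 as a marker across libraries, and the cluster is best called by Mt1, Mt2 and Gstt1.

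Below these 3 genes came Mgarp, which encodes a mitochondrial protein (median log2 ratio 0.98), Ly6c1, Ddt (0.95), Gnb5 (0.76), Nrn1 (0.61) and Gstt2 (0.60). Ddt encodes D-dopachrome tautomerase, a relative of the cytokine MIF, and had a mean of 378 CPM against 207. Gstt2, another theta-class transferase, had 269 against 181 CPM. Serpinb5 (0.50), Serpinb6b (0.47), Pde6d (0.44), Bckdha (0.44), Abtb1 (0.42) and Zscan12 (0.42) followed. The remaining named genes, down to a ratio of 0.29, included AW112010, Gbp2, Dpy19l3, Pbxip1, Wrn, Pim1, Zc3h12d, Frmd8, Ltb, Prdx2, Supt4a, Neat1 and Tpd52l2. Ltb, which encodes lymphotoxin beta, stood at 403 against 330 CPM. Several of these were not higher than in the clusters most like this one. Against cluster 0 the median log2 ratio was -0.20 for Gbp2, -0.14 for Neat1, -0.09 for Supt4a, -0.04 for Pbxip1 and -0.03 for Abtb1. Against cluster 8 it was -0.28 for Serpinb6b, -0.12 for Pim1, -0.04 for AW112010 and -0.03 for Ltb and for Wrn. Gstt1, Mt2, Mt1, Mgarp, Ly6c1, Ddt, Gnb5, Nrn1 and Gstt2 were above both, by 0.42 or more.

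At the low end, 214 of 4377 genes with at least 20 CPM in the other cells were lower in the cluster in all 8 libraries, and 4 of them had a median log2 ratio below -1. These were Inhba, a subunit of activin (-2.36, 4.15 against 21.2 CPM), the chemokine Ccl4 (-1.94, 5.83 against 28.1 CPM), Il17f (-1.18) and the nucleolar protein Nolc1 (-1.02). The low end did not set the cluster apart from cluster 0, the largest one, where Inhba averaged 4.51 CPM, Ccl4 4.80 CPM, Il17f 4.21 CPM and Nolc1 21.5 CPM. The median log2 ratio to cluster 0 was -0.13 for Inhba, 0.08 for Ccl4, 1.16 for Il17f and 0.55 for Nolc1. Il17f stood at 3.22 and 6.24 CPM in KO Th17, 1.34 and 5.20 in KO Th22, 25.7 and 15.02 in WT Th17, and 11.7 and 14.8 in WT Th22. Each of these was below the other cells of its own library. The rest of the 15 lowest were H2afx, Rrp15, Plac8, Cdkn3, Hivep3, Nr4a1, Ccdc71l, Ranbp1, Cyp51, Atad3a and Cenpf, between -0.90 and -0.74, and of these only Plac8 was also below cluster 0 (-0.19). Below the 20 CPM limit, Il17a (2.85 against 18.8 CPM), Il22 (5.08 against 19.3) and Il24 (5.14 against 18.8), cytokines of this helper lineage, were also lower in all 8 libraries.

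**Figure D2:**
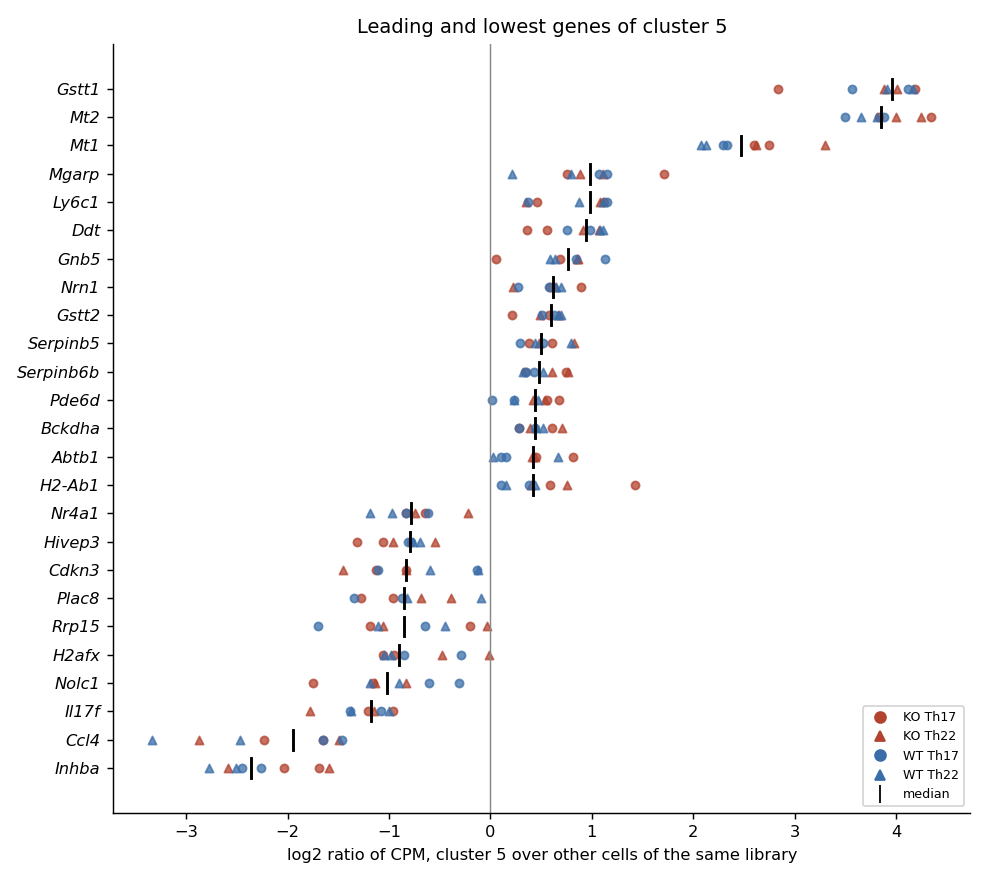
Log2 ratio of CPM in cluster 5 over the other cells of the same library for the 15 leading and the 10 lowest genes. Each point is 1 library, coloured by genotype with the marker shape for polarization, and the black bar is the median. Gstt1, Mt2 and Mt1 lie above 2 in every library, and all other leading genes have medians below 1.

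Apart from these genes the cluster looked like the other T cells. T cell identity genes were level: Cd3d had 1034 against 1025 CPM, Cd3e had a median log2 ratio of 0.02, Trac -0.04 and Cd4 0.10, and over the 14 genes of that list the median was -0.01. Across 5503 genes, which are not independent replicates, the mean log2 CPM of the cluster correlated most closely with that of cluster 0, the largest cluster (Pearson r = 0.990), and next with cluster 8 (r = 0.984). All 20 genes of mitosis (G2/M) had a median ratio below 0, with a list median of -0.67, and 8 of them were lower in every library. Among 11 genes of cytotoxic cells and chemokines with at least 1 CPM, 5 were lower in every library and the list median was -1.25. Both lists were set against all other cells together. In cluster 0 Cenpf of the first list averaged 18.0 CPM against 27.7 in cluster 5, and Ccl4 of the second 4.80 against 5.83 CPM. Gzmb, which encodes granzyme B, stood at 139 against 206 CPM. Of 16 genes of glycolysis, 3 were higher in every library (list median 0.07).

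In the lists of B cell, dendritic and myeloid, natural killer and γδ T cell genes, none with at least 1 CPM was higher in every library. Of 5 such B cell genes, 1 had a median log2 ratio above 0, at 0.39. Of 4 such dendritic and myeloid genes, 3 had a median above 0, up to 0.55. Among the 13 B cell genes, Cd22, Ighd, Iglc2, Ms4a1 and Pax5 had 0 UMIs in the cluster, and the list summed to 55.4 to 99.5 CPM against 46.2 to 84.0 CPM in the other cells. Cd14, Csf1r, Flt3 and Xcr1 were at 0 among 10 genes of dendritic and myeloid cells, whose sums of 171 to 245 CPM overlapped 178 to 237 CPM elsewhere. The γδ T cell genes summed to 0 to 4.02 CPM against 13.3 to 30.8 CPM, and the natural killer genes to 0 to 4.02 against 2.22 to 5.25 CPM. Beyond H2-Ab1, the class II genes did not stand out: H2-Aa had 0 UMIs, Cd74 had 17.1 against 18.7 CPM, and the median over 9 class II genes was -0.14. For the 2362 cells, a count of 0 allows up to 0.127% of cells with a UMI.

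At the level of single cells, the metallothionein and Gstt1 signals lay in largely separate cells. A UMI of Mt1 or Mt2 but none of Gstt1 was found in 1766 cells (74.8%), Gstt1 but neither metallothionein in 340 (14.4%), both in 243 (10.3%) and none of them in 13 (0.55%). For Mt2 alone, Gstt1 was detected in 5.30% of the cells with an Mt2 UMI and in 88.6% of those without one. In the other clusters the same shares were 3.19% and 1.84%. The clustering used these genes, and shapes how often they occur together, so this pattern is a description and not a test. The count of Gstt1 was not high per cell, with 122 of the 583 positive cells holding 2 or more UMIs.

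After thinning to 1500 UMIs, which left out 8642 shallower cells, 178 of them in the cluster, Mt2 was seen in 48.6% of cluster cells (95% exact binomial interval 46.5 to 50.8%, counting error only) and 2.99% of others. Without thinning these shares were 76.7% and 6.37%. Gstt1 was seen in 13.8% against 0.892% after thinning, and in 24.7% against 1.93% before. Mt1 was common everywhere, at 59.7% against 16.3% after thinning. The cluster did not hold all positive cells: it held 22.3% of all cells with an Mt2 UMI, 38.5% of those with at least 2 and 57.8% of those with at least 5. For Gstt1 it held 23.3% of positive cells and 43.7% of those with at least 2 UMIs.

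**Figure D3:**
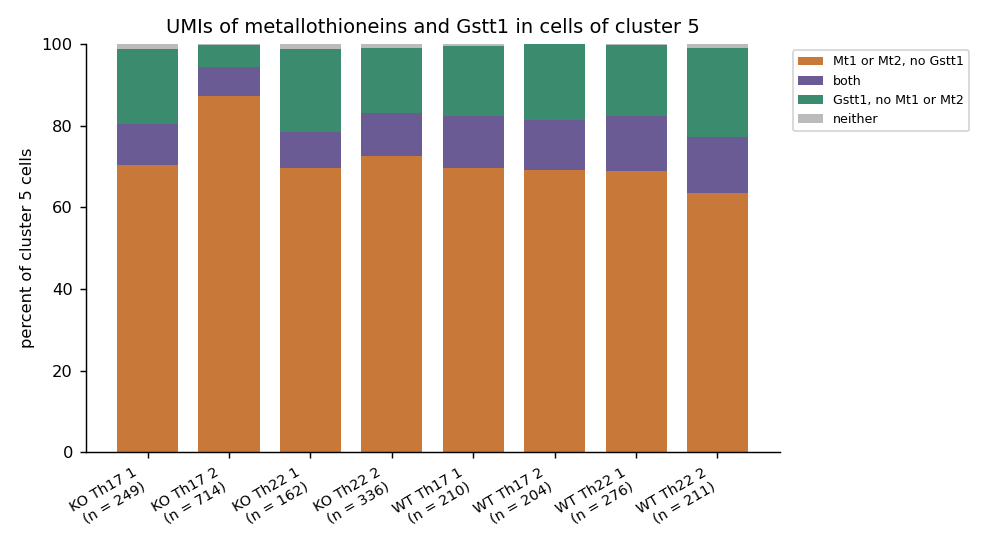
Percent of cluster 5 cells in each library with UMIs of Mt1 or Mt2 only, of Gstt1 only, of both, and of neither (stacked bars, n cells under each name). Metallothionein-only cells are the majority in all 8 libraries and reach 87.2% in KO Th17 replicate 2, where Gstt1-only cells are fewest at 5.46%.

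The cluster was divided by Mt2 and Gstt1 into 1716 cells with Mt2 and no Gstt1 and 487 cells with Gstt1 and no Mt2, with median depths of 2788 and 2972 UMIs. The Mt2 cells made up 85.4% of the cluster in KO Th17 replicate 2 and 62.6 to 71.1% elsewhere. As a share of all cells kept in a library, they were 0.999 to 1.66% in 7 libraries and 4.33% in KO Th17 replicate 2. The Gstt1 cells ranged from 0.402 to 0.581% in all 8 libraries, so the large share of the cluster in KO Th17 replicate 2 lay in its Mt2 cells. Of the 4578 genes with at least 20 CPM in either set, 38 were higher and 41 lower in the Mt2 cells in every library.

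In the Mt2 cells Mt1 averaged 1116 CPM, against 166 CPM in the Gstt1 cells and 151 CPM in the other clusters. The Mt2 cells were also higher in Lgals7, which encodes galectin 7 (60.2 against 30.1 CPM), Atp6v0d2, a subunit of the proton pump of lysosomes (70.9 against 34.7 CPM), Ly6c1 (40.8 against 24.3 CPM), Ndrg1 (58.4 against 36.9 CPM) and Ahnak (114 against 80.3 CPM). The Gstt1 cells were higher in Ddt (773 against 224 CPM), Gstt2 (427 against 204 CPM), Serpinb5 (177 against 87.7 CPM), Pitpnb (43.6 against 23.4 CPM), Tagap (23.1 against 8.08 CPM), Id3 (92.4 against 52.0 CPM) and Egr1 (61.0 against 42.2 CPM). Each of these genes kept its direction in all 8 libraries. In the other clusters Lgals7 averaged 61.5 CPM, Atp6v0d2 63.5, Ly6c1 20.9, Ndrg1 45.95 and Ahnak 89.5. Ddt averaged 207 CPM there, Gstt2 181, Serpinb5 77.4, Pitpnb 32.5, Tagap 11.15, Id3 84.0 and Egr1 48.6. Lgals7 and Atp6v0d2 were thus near the other clusters in the Mt2 cells and lower in the Gstt1 cells. Id3 was near them in the Gstt1 cells and lower in the Mt2 cells.

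Of the genes higher in the Gstt1 cells, Ddt and Gstt2 lie beside Gstt1 on chromosome 10, as does Gstt3, whereas Serpinb5 lies on chromosome 1. On the minus strand, so in the order of transcription, come Gstt2 (chr10:75831114-75837424), Gstt4, Gstt1, Gstt3 (chr10:75774115-75781414) and Ddt (chr10:75771230-75773414), and the whole stretch from Ddt to Gstt2 covers 66195 bases. These are paralogs, apart from Ddt, and how the counting treated reads that fit several of them was not tested. In the Gstt1 cells the median log2 ratio to the other clusters was 1.89 for Ddt and 1.22 for Gstt2, higher in all 8 libraries, and 1.89 for Gstt3 in 6 of 8. In the Mt2 cells it was 0.09 for Ddt and 0.11 for Gstt2. Further out, Mif, 60768 bases from Gstt1, stood at 0.20, Cabin1 on the other side at -0.15, Smarcb1 at 0.02 and Chchd10 at -0.04.

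The same neighbours were higher beside Gstt1 in cells of the other clusters. Outside the cluster, 1915 cells had a Gstt1 UMI and 97411 had none. Ddt averaged 394 CPM in the cells with Gstt1 and 202 CPM in those without, Gstt2 averaged 290 and 178 CPM, and Gstt3 averaged 11.6 and 4.09 CPM, each higher in 8 of 8 libraries. Serpinb5 did not follow, at 76.9 and 77.4 CPM. The farther neighbours Cabin1 (42.1 and 35.9 CPM) and Mif (1371 and 1189 CPM) were higher in 8 of 8 libraries by less, and Smarcb1 stood at 77.1 and 75.4 CPM. The rise was not confined to this locus. On other chromosomes Mt1 (186 and 150 CPM) was higher in 8 of 8 libraries, and Mt2 (29.7 and 23.3 CPM) in 7. H2-Ab1 (31.6 and 26.65 CPM) was higher in 7 as well, whereas Ly6c1 (18.3 and 20.95 CPM) was lower in 5. The cells with Gstt1 were deeper, with a median of 4412 against 2971 UMIs, and the part of depth in these differences was not tested beyond the scaling to CPM.

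Mt1 likewise went with Mt2 outside the cluster. The 6325 cells with an Mt2 UMI had a mean of 421 CPM of Mt1, against 126 CPM in the 93001 without, higher in 8 of 8 libraries. Mt3, another metallothionein gene of the same locus, had 3.98 against 1.39 CPM, also in 8 of 8. H2-Ab1 had 32.0 against 26.3 CPM in 8 of 8, and Ly6c1 had 23.7 against 20.7 CPM in 6 of 8. Ddt had 230 against 205 CPM in 8 of 8, and Gstt1 had 8.03 against 6.10 CPM in 6 of 8. Gstt2 did not follow, at 179 against 181 CPM. The cells with and without an Mt2 UMI had median depths of 4113 and 2930 UMIs.

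The first comparison within the cluster asked what the loss of Gpr65 changed over both polarizations. Gpr65 itself checked the labels: it stood at 4.72 and 1.70 CPM in KO Th17, 0 and 0.842 in KO Th22, 83.2 and 52.4 in WT Th17, and 43.8 and 54.0 in WT Th22. Every KO library was far below every WT library. From here on CPM are scaled by TMM, so levels differ slightly from the plain CPM above. By edgeR's quasi-likelihood test with Benjamini-Hochberg adjustment, 14 of 6661 genes tested were called between KO and WT, which is 0.21% of them, with 5 higher (0.0751%) and 9 lower (0.135%) in KO. Without adjustment 388 genes (5.82%) had a p below 0.05, and for 3.6% of the genes tested the KO and WT libraries did not overlap. This fit took the libraries of a genotype as independent. Same-numbered KO Th17 and KO Th22 libraries, however, deviated together from their group means (r = 0.511 over 4368 genes), so the p-values may be too small. Leaving out KO Th17 replicate 1 gave a count of 24, as did leaving out KO Th22 replicate 1, and it was 9 without WT Th22 replicate 1 and 8 without WT Th22 replicate 2.

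Mt1 was 1 of the 5 genes called higher. Because its level helped decide which cells entered the cluster, its values are a description and the call is not read as a result. Mt1 stood at 1009 and 1676 CPM in KO Th17 and 1053 and 993 in KO Th22, against 635 and 746 in WT Th17 and 593 and 537 in WT Th22. KO Th17 replicate 2 was the highest, and the lowest KO library was above the highest WT library. The means were 1183 ± 330 CPM (SD, n = 4) and 628 ± 88.8 CPM (SD, n = 4). The log2 difference was 0.91, and 0.73 without KO Th17 replicate 2. In the Mt2 cells, which were chosen on a metallothionein once more, Mt1 had 1393 and 1821 CPM in KO Th17, 1384 and 1139 in KO Th22, 802 and 932 in WT Th17, and 730 and 724 in WT Th22. The log2 difference of Mt2 was 0.50, of Gstt1 -0.38 and of H2-Ab1 1.03, and none of them was called. Without KO Th17 replicate 2 these were 0.29, -0.18 and 0.10.

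The interferon-induced transmembrane proteins, which restrict the entry of viruses, fell in KO. Ifitm1 stood at 3.15 and 13.0 CPM in KO Th17 and 80.0 and 61.5 in KO Th22, against 69.9 and 94.3 in WT Th17 and 440 and 530 in WT Th22. Within each polarization both KO libraries were below both WT libraries, and the ranges overlapped across polarizations. The log2 difference was -2.87 (SE 0.19). Ifitm3 stood at 15.7 and 20.4 CPM in KO Th17, 38.6 and 55.6 in KO Th22, 63.2 and 82.7 in WT Th17, and 253 and 171 in WT Th22, with a log2 difference of -2.07 (SE 0.19). Ifitm2 fell by 0.72 on the log2 scale, so all 3 tested members of this family were lower, with a list median of -2.07. The median over all genes tested was 0.01.

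Nkg7, a protein of cytotoxic granules, rose in KO, at 36.2 and 52.0 CPM in KO Th17 and 42.7 and 41.2 in KO Th22, against 6.65 and 21.0 in WT Th17 and 4.87 and 6.89 in WT Th22. The groups did not overlap, and WT Th17 replicate 2 was the highest of the WT libraries. The log2 difference was 2.11 (SE 0.30). Beside this, markers of natural killer cells summed to 0 to 4.02 CPM in KO and 1.72 to 2.35 in WT, γδ T cell markers to 0 to 4.02 and 2.31 to 3.43 CPM, and the 2 CD8 genes to 8.04 to 19.3 and 4.62 to 12.9 CPM. The call of Nkg7 held when cells with a UMI of the CD8 genes or of the γδ constant genes, among others, were left out. The natural killer genes were not part of that filter. What such cells add to the result was not tested further. Of 5 cytotoxic and chemokine genes tested only Nkg7 passed, and Ccl5 had 23.2 against 5.06 CPM with an adjusted p of 0.498.

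The other genes higher in KO were Lgals7 (78.4 ± 15.04 against 34.1 ± 8.50 CPM, SD, n = 4 each, 1.22 on the log2 scale), Atp6v0b, a subunit of the vacuolar proton pump (0.63), and Hsd17b10, a mitochondrial dehydrogenase (0.61). Those lower were Ecm1 (58.9 ± 21.1 against 152 ± 37.4 CPM, -1.27), Il7r, the receptor chain for IL-7 (59.0 ± 20.6 against 122 ± 20.8 CPM, -1.12), Upp1, uridine phosphorylase (-1.02), Prr29 (-2.38) and Hif1a, the oxygen-sensing factor subunit (452 ± 55.5 against 646 ± 49.5 CPM, -0.51). Hsd17b10 was the one among these whose groups overlapped. The calls of Gpr65, Ifitm1, Ifitm3, Nkg7, Lgals7 and Ecm1 held when any 1 of the 8 libraries was left out. Lgals7 was lost when the Th17 and Th22 libraries with the same genotype and number were added up (adjusted p of 0.0738), and Ecm1 after thinning (0.218). Of all 18 alternatives run, Il7r lost its call in 2, Ifitm2 in 3, Upp1 in 5, Hif1a in 6, Hsd17b10 in 8 and Atp6v0b in 9. Prr29 lost its call in 4 of 15. The log2 difference of Upp1 ranged from -1.18 to -0.41 over these alternatives. Losses on leaving out 1 library follow. Il7r was lost without WT Th22 replicate 2 (adjusted p of 0.0672). Ifitm2 was lost without WT Th17 replicate 1 or WT Th22 replicate 1 (0.0879 to 0.0995), and Prr29 without those or WT Th22 replicate 2 (0.0879 to 0.194). Upp1 was lost without WT Th17 replicate 2 or either WT Th22 replicate (0.0677 to 0.213). Hif1a was lost in 5 of 8 such fits, all but those without KO Th17 replicate 2, KO Th22 replicate 2 or WT Th17 replicate 2 (up to 0.283). Hsd17b10 was lost in 6, all but those without replicate 1 of KO Th17 or of KO Th22 (up to 0.252), and Atp6v0b in 6, all but those without KO Th17 replicate 2 or KO Th22 replicate 2 (up to 0.289).

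**Figure D4:**
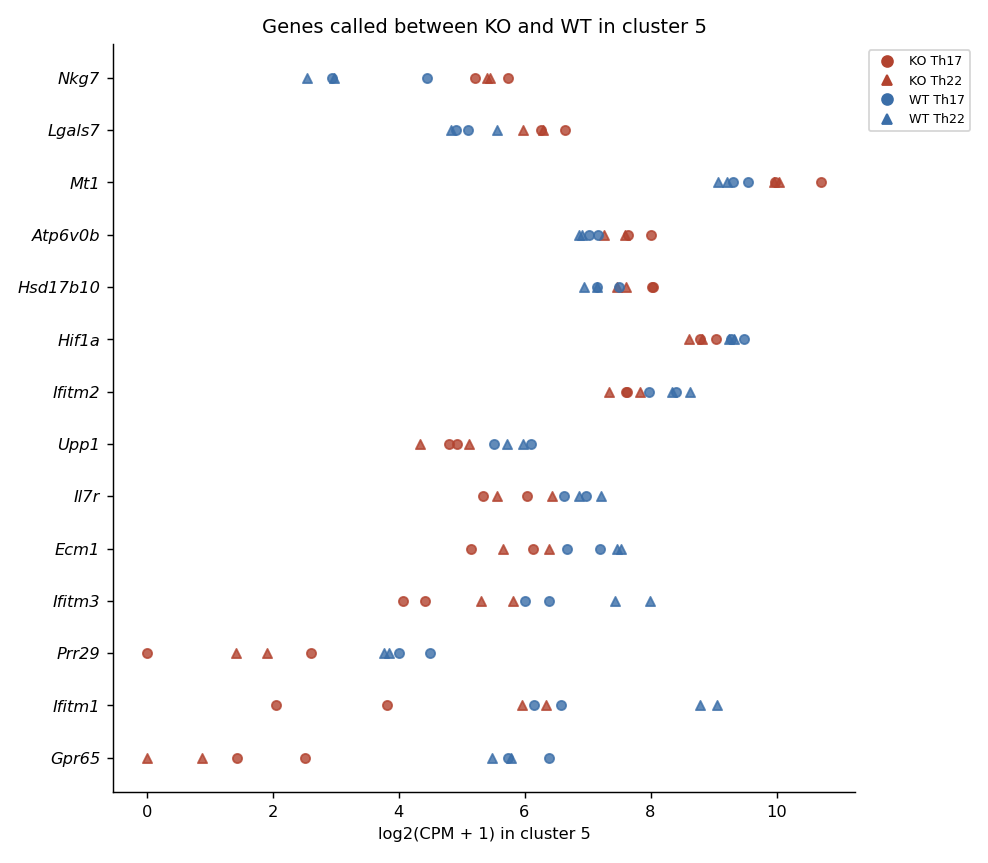
Levels of the 14 genes called between KO and WT in cluster 5, as log2(CPM + 1). Each point is 1 library, coloured by genotype with the marker shape for polarization. For Mt1, Nkg7, Lgals7, Ecm1 and Il7r the 4 KO and 4 WT libraries do not overlap, whereas for Ifitm1 they separate only within a polarization.

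Among the gene groups, the 13 genes of sterol synthesis were all below 0 in KO, with a median log2 difference of -0.55 and none called. Their sum was 579 to 750 CPM in KO libraries and 836 to 940 CPM in WT libraries. Among 5 tested genes of metal binding and zinc transport, which include Mt1 itself, the median was 0.33. None of 13 MHC class I genes was called (median 0.26, 11 above 0), nor any of 5 class II genes (0.05), 14 T cell identity genes (-0.21) or 16 glycolysis genes (0.16). Il7r was the called gene among 15 genes of naive and memory cells, and Hif1a among 10 of the Th17 program. Il17f stood at 4.16 against 16.8 CPM, with an adjusted p of 0.0659.

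Within Th17 alone, 4 genes were called (0.0601%): Gpr65, Ifitm1 and Ifitm3 were lower (0.045%) and Lgals7 was higher (0.015%) in KO (87.0 ± 16.2 against 31.2 ± 2.94 CPM, SD, n = 2 each). The call of Lgals7 was lost without KO Th17 replicate 2, either WT Th17 replicate or WT Th22 replicate 2 (adjusted p of 0.0515 to 0.834), and that of Ifitm3 without WT Th17 replicate 2 (0.202). Within Th22 alone, 6 genes were called (0.0901%). Ifitm1, Gpr65, Ifitm3, the pseudogene Olfr1369-ps1 and Tnrc6a, a component of microRNA silencing, were lower (0.0751%), and Nkg7 was higher (0.015%, log2 difference 2.80). Olfr1369-ps1 stood at 73.1 and 63.1 CPM in KO Th22 and 217 and 204 in WT Th22, and Tnrc6a at 49.6 and 57.2 against 130 and 129 CPM. The count of 4 in Th17 was 24 and 9 without KO Th17 replicates 1 and 2, 15 and 14 without KO Th22 replicates 1 and 2, and 2 without WT Th17 replicate 2. The count of 6 in Th22 was 10 without either KO Th17 replicate, 15 and 27 without KO Th22 replicates 1 and 2, and 4 without WT Th22 replicate 1 or 2. In Th17 Tnrc6a stood at 116 and 135 CPM in KO and 110 and 73.4 CPM in WT. The calls of Nkg7 and Tnrc6a were lost without either WT Th22 replicate (0.135 to 0.31 and 0.298 to 0.341). The interaction of genotype and polarization called 0 of 6661 genes by edgeR, with 252 (3.78%) at an unadjusted p below 0.05, and DESeq2 also called 0. It called 11 without KO Th22 replicate 1, and 1 without KO Th17 replicate 1 or without KO Th22 replicate 2.

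The second comparison asked what Th22 polarization changed over both genotypes. Of 6661 genes, 17 were called (0.255%), 11 higher (0.165%) and 6 lower (0.0901%), with 503 (7.55%) at an unadjusted p below 0.05 and 3.9% with no overlap between Th22 and Th17 libraries. With the genotype and replicate number as a block, 82 were called, 40 higher and 42 lower, including all 17. Tiparp, a target of the aryl hydrocarbon receptor that limits its activity, stood at 14.2 and 15.8 CPM in KO Th17 and 26.6 and 26.8 in WT Th17, against 70.3 and 66.5 in KO Th22 and 71.8 and 60.9 in WT Th22. All Th22 libraries lay above all Th17 libraries, with a log2 difference of 1.73 (SE 0.22) and an adjusted p of 3e-05 by edgeR's quasi-likelihood test. Asb2, another gene of the receptor's response list, was 1.12 higher. That list had 2 of 5 tested members called, Tiparp and Asb2, with a median of 1.12 against 0.00 over all genes. Because the list was chosen with earlier results of these data known, its count and median are a description only. Cyp1b1, an enzyme induced by the receptor, had 0 UMIs in all Th17 libraries and 4.14, 3.37, 12.2 and 12.6 CPM in Th22, and was not called (adjusted p of 0.0553).

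Of 7 tested genes of the interferon response, 2 rose in Th22, among them Ifi27l2a (0.53). All 7 had differences above 0, with a median of 0.40. In the Ifitm family 2 of 3 tested genes rose, Ifitm1 (2.61) and Ifitm3 (1.46). Ifi27l2a stood at 596 and 616 CPM in KO Th17 and 617 and 748 in WT Th17, against 822 and 1077 in KO Th22 and 864 and 965 in WT Th22. The Th17 and Th22 libraries did not overlap. Plac8 (32.2 ± 5.02 against 9.31 ± 1.37 CPM, SD, n = 4 each, 1.81), Cldnd1 (1.41), Treml2 (0.65), Slfn2 (0.60) and Rrm2, a subunit of ribonucleotide reductase (17.1 ± 4.81 against 3.65 ± 1.55 CPM, 2.20), were higher as well. Plac8 is 1 of the 15 lowest genes of the cluster. Its level may have helped form the cluster, so its values are a description.

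Odc1, the enzyme that starts polyamine synthesis, fell in Th22, at 268 and 223 CPM in KO Th17 and 266 and 289 in WT Th17, against 136 and 139 in KO Th22 and 124 and 115 in WT Th22. The groups were well apart, with a log2 difference of -1.01 (SE 0.13). AA467197 (-1.17), Basp1 (-1.12), Exoc2 (-0.71) and Rbpj, the DNA-binding partner of Notch (-0.56), were lower too. AA467197 and the 2 Ifitm genes overlapped between the polarizations.

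The calls of Ifitm1, Tiparp, Ifitm3, Odc1, Plac8, AA467197 and Cldnd1 held when any 1 library was left out. Rrm2 was lost without KO Th17 replicate 2 (adjusted p of 0.0765). Exoc2 was lost without KO Th17 replicate 2, WT Th17 replicate 2 or WT Th22 replicate 2 (0.0636 to 0.146), and Basp1 without KO Th17 replicate 2, WT Th17 replicate 1 or either WT Th22 replicate (0.0569 to 0.144). Ifi27l2a was lost in 5 of 8 such fits, all but those without KO Th22 replicate 1, WT Th17 replicate 2 or WT Th22 replicate 1 (up to 0.188). Asb2 was lost in 6, all but those without KO Th17 replicate 1 or KO Th22 replicate 1 (up to 0.115). Slfn2 was lost in 6, all but those without KO Th22 replicate 1 or WT Th22 replicate 1, and Treml2 in 6, all but those without KO Th17 replicate 2 or KO Th22 replicate 1 (each up to 0.269). Rbpj was lost in 7, all but the fit without KO Th17 replicate 1 (up to 0.196). The count of 17 was 26 and 33 when replicate 1 of KO Th17 or of KO Th22 was left out, 11 without WT Th17 replicate 1 and 10 without WT Th22 replicate 2. Of the leading genes, whose levels helped form the cluster, Mt1 had a log2 difference of -0.35 and Mt2 of -0.34, which were -0.16 and -0.12 without KO Th17 replicate 2. Ddt (0.45, adjusted p of 0.183) and Serpinb5 (-0.62, adjusted p of 0.117) were not among the 17 genes. With the block both were called (adjusted p of 0.00682 and 0.0155).

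**Figure D5:**
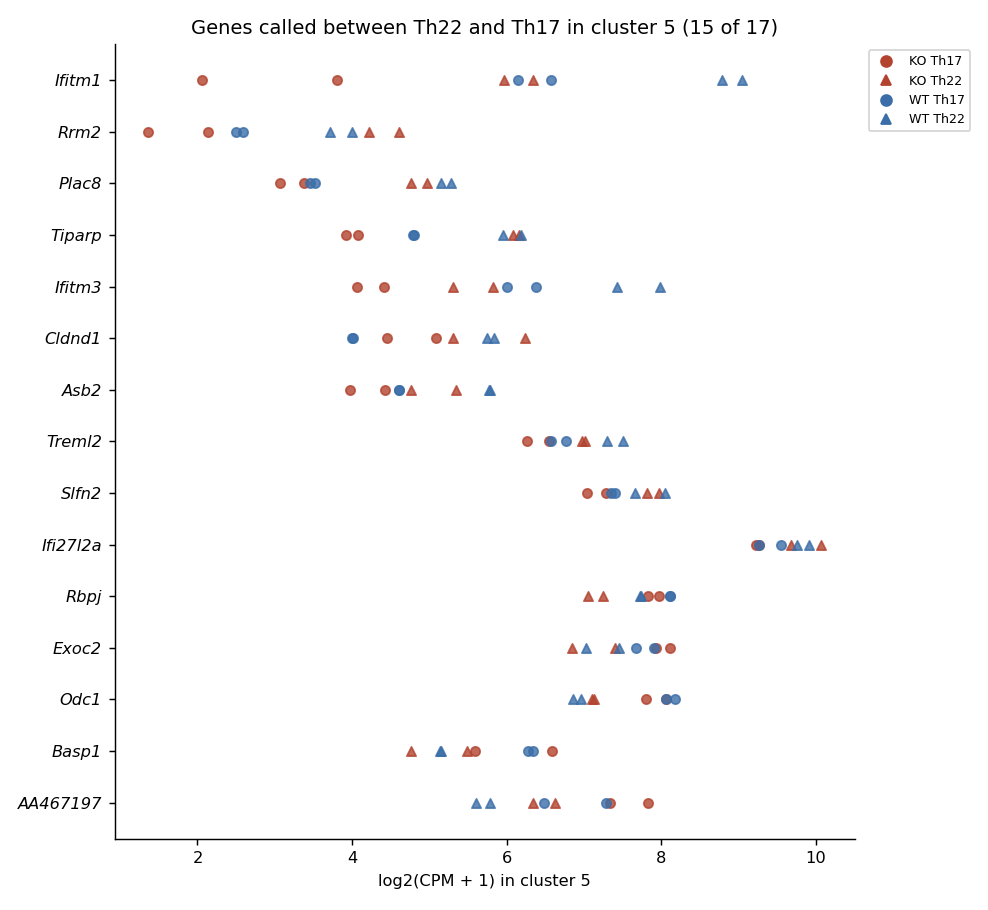
Levels of 15 of the 17 genes called between Th22 and Th17 in cluster 5, as log2(CPM + 1). Each point is 1 library, coloured by genotype with the marker shape for polarization. Tiparp, Plac8 and Rrm2 separate Th22 from Th17 in every library, whereas Ifitm1 and Ifitm3 also separate KO from WT within each polarization.

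A further comparison tested whether an effect in the cluster differed from that in the other cells of the same libraries, over 12897 genes with the library as a block. For KO against WT 10 genes were called (0.0775%), 3 with a higher (0.0233%) and 7 with a lower value (0.0543%) in the cluster, sign included. Mt1 was among them. The cells were assigned to the cluster partly by Mt1, so its values inside and outside are a description and no p is given. It had 1153 ± 360 CPM in KO and 625 ± 92.4 in WT inside the cluster, and 168 ± 74.8 and 134 ± 8.86 CPM outside (SD, n = 4 each). The log2 difference between KO and WT was 0.88 inside and 0.33 outside. Tubb5, a tubulin, differed by 0.31, and Actb, the cytoskeletal actin, by -0.23 with the call lost without WT Th17 replicate 2 (adjusted p of 0.0936). Ranbp1 (-0.69), Ddx21 (-0.43), Ly6a (-0.25), Nsun2 (-0.79), Tomm6 (-0.52) and Ifitm1 (-0.59) were the remaining genes with lower values. Ifitm1 fell in KO in both, by more inside (-2.88 on mean CPM) than outside (-2.26). The others were negative inside and positive outside. Their differences were -0.32 and 0.34 for Ranbp1, -0.26 and 0.22 for Ddx21 and -0.20 and 0.04 for Ly6a. For Nsun2 they were -0.33 and 0.41, and for Tomm6 -0.35 and 0.21. Ranbp1 is 1 of the 15 lowest genes of the cluster. Its level may have helped decide which cells entered, so its difference is a description. H2-Ab1, also a leading gene of the cluster, differed by 0.79, from 59.8 against 30.99 CPM inside and 28.4 against 25.2 CPM outside.

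Most of these calls rested on few libraries. Without KO Th17 replicate 2 the difference for H2-Ab1 was 0.38 (adjusted p of 0.995), and Tubb5 (0.133), Ranbp1 (0.309), Ddx21 (0.483), Ly6a (0.152), Nsun2 (0.39) and Tomm6 (0.125) lost their calls. Ranbp1 was also lost without WT Th17 replicate 2 (0.191), and Ifitm1 in 6 of 8 such fits, all but those without KO Th17 replicate 2 or WT Th17 replicate 1 (up to 0.528). H2-Ab1 was also lost without KO Th22 replicate 2, either WT Th17 replicate or WT Th22 replicate 2. Ddx21 was also lost without KO Th22 replicate 2, either WT Th17 replicate or WT Th22 replicate 1, and Nsun2 without KO Th22 replicate 2, WT Th17 replicate 1 or either WT Th22 replicate. Ly6a held only without KO Th22 replicate 2 or WT Th22 replicate 2, and Tomm6 only without KO Th22 replicate 1. The count of 10 rose to 41 when KO Th22 replicate 1 was left out, and was 6 without WT Th17 replicate 2 or without WT Th22 replicate 1. For Th22 against Th17, 1 gene was called (0.00775%): Ddt had 424 against 332 CPM in the cluster and 206 against 207 CPM outside, a difference of 0.40. Ddt is a leading gene too, so this call is not read as a result. It was lost without replicate 2 of KO Th17 (0.704) or KO Th22 (0.422) or WT Th17 replicate 1 (0.174), and after thinning (adjusted p of 1). The count of 1 was 0 without WT Th17 replicate 1, 2 without KO Th22 replicate 2, 3 without KO Th17 replicate 1 or WT Th22 replicate 1, and 6 without WT Th17 replicate 2.

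The share of cells in the cluster was 1.75 and 5.07% in KO Th17, 1.51 and 2.34% in KO Th22, 1.78 and 2.05% in WT Th17, and 1.83 and 1.86% in WT Th22. Apart from KO Th17 replicate 2 the libraries lay close together and the groups overlapped. Th22 against Th17 differed by -0.44 on the log2 scale (adjusted p of 0.673 over the clusters by edgeR's quasi-likelihood test), and by 0.025 without KO Th17 replicate 2 (adjusted p of 0.895). A test of KO against WT for the share is not reported, since Mt1, which defines the cluster, was called there.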

How the data were processed

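Single-cell RNA libraries of splenic CD4+ T cells were made with the 10x Chromium 3′ v3 kit, per the labels' protocols. The submitters' processing notes name Cell Ranger 5.0.1, Seurat and mm10 without roles. Clustering settings are not stated there or in the labels. The authors deposited UMI counts per gene and cell as whole numbers, with no normalization, together with a cell table of library, cluster number, UMIs and genes per cell. Per the file headers, that table also gives the percent of mitochondrial UMIs, at most 9.99%, and cell cycle score columns, which were not used. The deposited UMI and gene totals equalled the matrix sums in all 104660 cells.

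Cells with at least 500 genes were kept, and no doublet caller was run. Counts of 16649 genes were summed per library over cluster 5 and over all other cells, and CPM were computed here. Members and gene lists were chosen with earlier results of these data known. Cluster against other cells was described by log2 ratios with 1 CPM added. The text names the 30 highest and 15 lowest genes that kept their direction in 8 libraries at 20 CPM or more (some genes are not reported here), and within the cluster the 10 largest called rises and falls at 10 CPM or more without overlap, plus fixed lists. Called genes that overlapped or lay below that level are named for completeness.

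Comparisons used edgeR 4.0.16 (R 4.3.3): TMM, filterByExpr, robust quasi-likelihood tests on library sums and Benjamini-Hochberg adjustment over all genes tested, called below 0.05. KO against WT and Th22 against Th17 were additive fits over 8 libraries with no term for the replicate number, so libraries counted as independent. Effects within a polarization used 1 mean per group. On simulated data for KO against WT, 65.5% of 200 genes changed by a log2 of 1 and 94% of those changed by 2 were recovered, with 6 and 11 false calls. Within Th17 the shares were 29% and 83.5%, with 2 and 13 false calls. The simulated libraries were drawn independently of one another. Alternatives were DESeq2 1.42.0, its size factors, no filter, all cells, thinning to 1500 UMIs, leaving out the 8% of cells with most UMIs or cells with UMIs of other types, replicate blocks and leaving out each library. Deviations from group means over 4368 genes correlated between same-numbered Th17 and Th22 libraries at r = 0.511 in KO and 0.125 in WT; this comes from the data, not the labels. Upstream sequences were RefSeq GRCm38.p6, and 98.47% of gene symbols matched the tables. Intervals are exact binomial and cover counting error only.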

Additional observations from a re-analysis of the deposited data

Results flagged for a closer look

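Of 70 groups of 4 libraries examined, 3 held a library whose gap to the nearest other library exceeded Dixon's 95% limit as a share of the range, and chance gives about 1 in 20. Mt1 stood at 1676 CPM in KO Th17 replicate 2, high among the KO libraries. Nkg7 stood at 21.0 CPM in WT Th17 replicate 2, high among the WT libraries. Ifi27l2a stood at 748 CPM in WT Th17 replicate 2, high among the Th17 libraries.

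By the test of the difference itself, the KO effect in the cluster minus that in other cells on the log2 scale was 0.61 for Mt1, 0.31 for Tubb5, -0.23 for Actb, -0.69 for Ranbp1, -0.43 for Ddx21, -0.25 for Ly6a, -0.59 for Ifitm1, 0.79 for H2-Ab1, -0.79 for Nsun2 and -0.52 for Tomm6. The Th22 effect differed by 0.40 for Ddt. Mt1, H2-Ab1 and Ddt are leading genes of the cluster, whose levels helped decide which cells it holds, so their differences are descriptions. The same is true of Ranbp1, 1 of the 15 lowest genes, whose level may have helped as well.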

How the results depend on the processing

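Counts of called genes are given with the value reported first, and the cause of each move was not tested. Without the filter on low counts, KO against WT moved from 14 to 47, from 4 to 23 in Th17 and from 6 to 19 in Th22, the interaction from 0 to 3, Th22 against Th17 from 17 to 61 and the difference of Th22 effects from 1 to 2. Adding up the Th17 and Th22 libraries that share a genotype and a number, which leaves fewer samples, gave 7 for KO against WT. DESeq2 gave 11 for Th22 against Th17. Thinning gave 2 for the interaction, 4 for the difference of KO effects and 0 for that of Th22 effects. Without the 8% of cells with most UMIs the interaction gave 1 and the difference of KO effects 19. Without cells holding UMIs of other types the differences of effects gave 18 and 2, with all cells that of Th22 effects gave 3, and with DESeq2 size factors 4. Other clusters weighted equally gave 5 leading genes in place of 3.

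The replicate block gave 82 for Th22 against Th17. It gave 19, 6, 6 and 0 for KO against WT, its Th17 and Th22 parts and the interaction. Same-numbered libraries did not deviate together between KO and WT (r of -0.19 to -0.136). Those of KO Th17 and KO Th22 did (r = 0.511). Crossing the numbers between KO and WT, chosen after seeing the data, gave 41, 25 and 29. Leaving out each library gave 8 to 24 for KO against WT, 2 to 24 in Th17, 4 to 27 in Th22, 0 to 11 for the interaction, 10 to 33 for Th22 against Th17, 6 to 41 and 0 to 6 for the differences of KO and Th22 effects, and -0.62 to 0.025 for the share. Without KO Th17 replicate 2 the log2 value changed sign for the share (0.025), Ddt in KO against WT (0.001193) and Gstt1 in Th22 against Th17 (-0.025), and the fits leaving out 1 library ranged from -0.19 to 0.001193 for Ddt and from -0.025 to 0.42 for Gstt1.

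Ifitm1, Gpr65, Ifitm3 and Nkg7 kept their KO calls in all 18 alternatives run. A lone library left in a group is assumed to vary like the other groups. At these depths genes near 1 UMI per library could not be compared.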
